A study of Mus musculus with 2 samples.

Results

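The TNF superfamily, TRAF and NF-κB genes were described in glomerular RNA of male C57BL/6J mice. They were taken by symbol: every probe set with exactly 1 gene symbol that begins with Tnfrsf, Tnfsf or Tnfaip, or with Traf and a digit, together with 17 named genes of the same pathway such as Tnf, Fas, Rela and Nfkbia. This gave 103 of the 34945 probe sets with 1 symbol, for 59 of 18193 genes. Nfkb1 and Traf3 are not analysed here. The prefixes also take in genes that are not superfamily members, such as Tnfaip1, Tnfaip8, the TRAF3-interacting Traf3ip1 and the antisense RNA Tnfsf13os.

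All mice were GC-A fl/fl and also p38 fl/fl. The double knockout was Nephrin-Cre (Cre/+), in which the nephrin promoter drives Cre in podocytes, which form the outer layer of the filter and are 1 of several cell types in a glomerulus. The floxed control was Nephrin-Cre (+/+), read as carrying the floxed alleles without Cre. GC-A is a natriuretic peptide receptor and p38 a stress-activated kinase. At 2 months of age both genotypes had been kept for 3 weeks on a 6% NaCl diet with aldosterone from an implanted pump (0.2 μg per kg and minute), so no untreated mice enter the comparison. There was 1 array for each genotype, and whether it held 1 mouse or a pool is not stated in the labels. No difference below has a replicate check, no test or standard error can be given, and higher and lower describe these arrays only.

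TNF superfamily ligands are mostly trimeric membrane or secreted proteins that gather their receptors on the target cell. The receptors recruit TRAF adaptors and the ubiquitin ligases cIAP1 and cIAP2, which leads to kinases that mark IκB proteins for breakdown and release NF-κB dimers into the nucleus. In the non-canonical branch the precursor p100, the product of Nfkb2, is cut to p52, which pairs with RelB. Several IκB genes, Nfkb2, Relb, Birc3 and Tnfaip3 are themselves known NF-κB targets and act as feedback. In the kidney, TNF receptors and the TWEAK receptor Fn14 are known from glomerular and tubular injury.

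Signals were MAS5 intensities on a linear scale, 1 per probe set and array. A signal below 52.7, the floor, was raised to it before log2, and a gene counts as measured if at least 1 of its signals was not below the floor. Each gene is given by its brightest probe set unless others are named. Of the 59 genes, 44 were measured, and 8 of these had 1 signal below the floor, so that their folds are lower bounds. The other 15 had no signal above 49.1 on either array. All differences are log2 values of the double knockout minus the floxed control, and a difference of 1 is 2-fold.

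Most of the measured genes read higher in the double knockout. The log2 difference was above 0 for 36 of the 44 (81.8%), against 56.1% of all 13290 measured genes, and its median was 0.47, against 0.07 over all measured genes. At least 2-fold higher were 4 genes (9.09%, against 3.53% of all genes), namely Nfkbie, Tnfrsf23, Nfkb2 and Tnfrsf12a. None was at least 2-fold lower, against 2.87% of all genes. At least 1.5-fold higher were 15 genes (34.1%, against 13.7%) and 2 were at least 1.5-fold lower, Tnfrsf21 and Tnfaip8 (4.55%, against 10.0%). The remaining 27 measured genes lay between -0.27 and 0.57. For some genes, the place among the 500 other measured genes closest in signal is given below as a percentile. It describes the scatter on these arrays and is not a test.

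**Figure D1:**
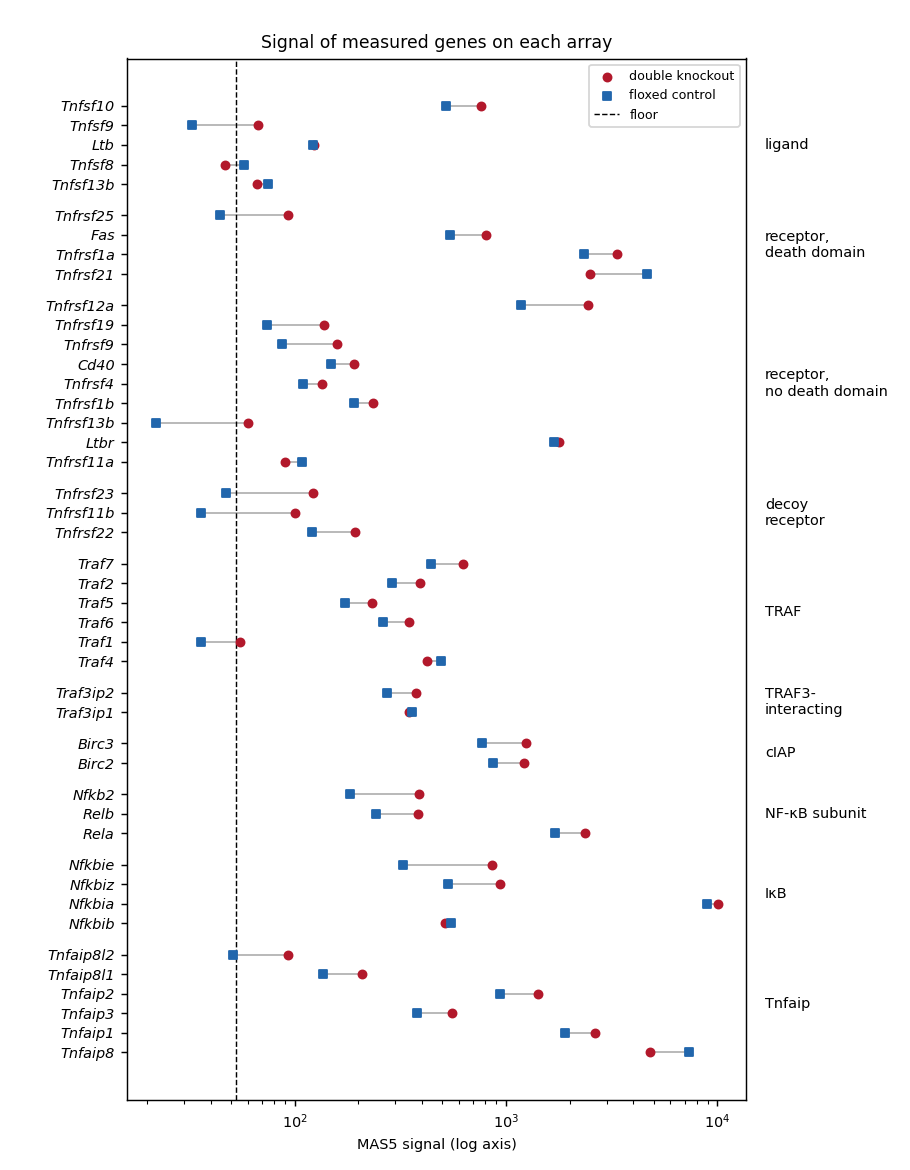
MAS5 signal of the 44 measured genes on the double knockout array (circles) and the floxed control array (squares), on a log axis, grouped by role; the dashed line is the floor of 52.7. The circle lies to the right of the square for 36 genes, with the widest gaps to the left at Tnfrsf21 and Tnfaip8.

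Cell type markers differed between the arrays and set the scale on which these differences are read. Of 30 measured markers of podocytes, glomerular endothelium, mesangial and mural cells and the parietal epithelium, 28 were higher in the double knockout, with a median of 0.74. Their summed signals were 169729 in the double knockout against 116202 in the floxed control. All 10 proximal tubule markers and all 7 measured markers of the loop, distal tubule and collecting duct were lower, with medians of -0.82 and -0.75. The proximal tubule markers summed to 78196 in the double knockout against 120395 in the floxed control, and those of the later segments to 38114 in the double knockout against 53241 in the floxed control. All 11 macrophage and monocyte markers were higher, with a median of 0.87 and sums of 6612 in the double knockout against 3839 in the floxed control. In such bulk RNA, fewer cells of a type and less RNA per cell cannot be told apart. The part of these shifts in the differences of single genes was not tested. Subtracting the glomerular median of 0.74 from every gene left 10 of the 44 genes above 0 (22.7%, against 8.89% of all genes), and 1 of them, Nfkbie, at least 1.5-fold higher (2.27%, against 1.16%). It put the other 34 below 0, and 11 of these at least 1.5-fold lower (25%, against 58.3% of all genes). The targeted genes read 102 in the double knockout against 167 in the floxed control for Npr1, which encodes GC-A, and the brightest probe set of Mapk14, taken as the floxed p38 gene, read 2607 in the double knockout against 2628 in the floxed control. Where these probes lie relative to the floxed exons is not given in the sources used here.

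Of the 10 ligand genes with a probe set of 1 symbol, none reached 1.5-fold. All but Tnfsf10 were dim, the highest of their signals being the 123 of Ltb. Probe sets annotated to several genes are not covered here and are given at the end. Tnf, the founding cytokine of the family, read 10.2 in the double knockout against 10.0 in the floxed control, and Lta, lymphotoxin α, read 23.0 in double knockout glomeruli and 5.68 in floxed control glomeruli, all below the floor. Ltb, which encodes the membrane partner of lymphotoxin α, read 123 in the double knockout against 122 in the floxed control. These 3 genes are neighbours on chromosome 17. Tnfsf11 (RANKL), Tnfsf14 (LIGHT) and Tnfsf4 (OX40 ligand) were below the floor on both arrays as well. The antisense transcript Tnfsf13os was also below it. The 5 measured ligands had a median difference of 0.02, with 3 above 0 and 2 below.

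Tnfsf10, which encodes the death ligand TRAIL, had the largest difference among the ligands with both signals above the floor. It read 759 in the double knockout against 519 in the floxed control, a log2 difference of 0.55 or 1.46-fold higher. Its other probe sets gave 0.58 and 0.26, so all 3 were higher in the double knockout. Tnfsf9 (4-1BB ligand) read 67.3 in the double knockout against 32.8 in the floxed control, at least 1.28-fold higher. Its log2 difference depends on the floor, and was 1.04 with no floor or with one at the 25th percentile. Tnfsf13b, the B-cell survival factor BAFF, read 66.2 in the double knockout against 74.4 in the floxed control, and Tnfsf8 (CD30 ligand) read 46.6 in double knockout glomeruli and 57.4 in floxed control glomeruli. Both of these were slightly lower, close to the floor.

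Of the 22 receptor genes 16 were measured, 14 of them above 0, with 7 higher and 1 lower by 1.5-fold or more. Of all measured genes 56.1% were above 0, and 13.7% and 10.0% were higher and lower by that much. Those below the floor on both arrays were Tnfrsf10b (the mouse TRAIL receptor), Tnfrsf8 (CD30), Tnfrsf13c (BAFF receptor), Tnfrsf14 (HVEM), Tnfrsf17 (BCMA) and Tnfrsf18 (GITR), several of which are known from lymphocytes. Lymphocyte markers were dim too. Of 7 T and NK markers with a probe set 5 were below the floor on both arrays, Cd3e, Cd3d, Cd3g, Cd4 and Ncr1. The summed signal over these 7 markers was 219 in the double knockout against 174 in the floxed control, and that of 6 B-cell and plasma cell markers was 679 in the double knockout against 631 in the floxed control. With 1 array per genotype, the signals of these receptors cannot show whether lymphocytes differed.

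Tnfrsf12a encodes Fn14, the receptor of the cytokine TWEAK and a known growth factor-inducible gene. Its signal was 2444 in the double knockout against 1182 in the floxed control, 2.07-fold higher, at percentile 98.6 of genes of like signal. A cross-hybridising probe set of the same gene read 2690 in the double knockout against 1111 in the floxed control, a log2 difference of 1.28. Tnfrsf12a therefore stood in the same direction in both of its probe sets, and past 2-fold in each.

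The classical TNF receptors differed less. Tnfrsf1a, which encodes the death domain receptor TNFR1, read 3355 in the double knockout against 2343 in the floxed control, 1.43-fold higher. Tnfrsf1b, encoding TNFR2, read 235 in double knockout glomeruli and 192 in floxed control glomeruli, or 1.22-fold, and its second probe set gave 0.19 on the log2 scale. Fas, the death receptor of Fas ligand, read 807 in the double knockout against 543 in the floxed control, 1.49-fold higher and just under 1.5-fold. Ltbr, the lymphotoxin β receptor, read 1790 in the double knockout against 1692 in the floxed control, a difference of 0.08. These 4 genes lay between percentiles 51.0 and 87.4 of genes of like signal, with Tnfrsf1a and Fas at the upper end.

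Tnfrsf21, which encodes the death receptor DR6, was the receptor that stood lower. It read 2501 in the double knockout against 4634 in the floxed control, 1.85-fold lower, at percentile 8.4 of genes of like signal. Its other probe set read 797 in double knockout glomeruli and 1660 in floxed control glomeruli, a log2 difference of -1.06 and so 2.08-fold lower. Both values lay below the medians of the tubule marker lists but within their ranges. These ran from -1.43 to -0.28 for the proximal tubule and from -1.58 to -0.15 for the later segments. The part of tubule RNA in this difference was not tested. Tnfrsf11a, the RANKL receptor RANK, was the other receptor below 0, with 90.1 in the double knockout against 109 in the floxed control, and its second probe set gave -0.18.

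The decoy receptors, which bind ligand without passing a signal, were all higher. Tnfrsf23 and Tnfrsf22 are mouse decoy TRAIL receptors and neighbouring genes on chromosome 7. Tnfrsf23 read 122 in the double knockout against 47.3 in the floxed control, at least 2.31-fold higher. Tnfrsf22 read 194 in the double knockout against 120 in the floxed control, or 1.61-fold higher, with 0.70 and 0.13 on the log2 scale in its other probe sets. The sequences of these neighbours are alike, and cross-hybridisation of their probes was not checked, so the difference between them is uncertain. Tnfrsf11b encodes osteoprotegerin, the secreted decoy of RANKL. It read 100 in the double knockout against 35.9 in the floxed control, at least 1.91-fold higher, while its second probe set read 55.9 in double knockout glomeruli and 43.4 in floxed control glomeruli. Among genes of like signal, Tnfrsf23, Tnfrsf22 and Tnfrsf11b were at percentiles 95.8, 82.6 and 92.8.

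Further receptors past 1.5-fold were dim. Tnfrsf19 (TROY) read 137 in the double knockout against 74.1 in the floxed control, 1.85-fold higher, while its other 2 probe sets were below the floor on both arrays. Tnfrsf9, the costimulatory receptor 4-1BB, read 159 in the double knockout against 87.2 in the floxed control, or 1.83-fold. Its other 2 probe sets were also below the floor on both arrays. Tnfrsf25 (DR3) read 92.9 in the double knockout against 44.2 in the floxed control, at least 1.76-fold higher. Among genes of like signal, Tnfrsf19, Tnfrsf9 and Tnfrsf25 were at percentiles 89.8, 88.6 and 91.0. Tnfrsf9 and Tnfrsf25 lie on chromosome 4, which carries 7 of the 22 receptor genes. The other 2 measured there were also above 0, Tnfrsf1b and Tnfrsf4 (OX40), of which Tnfrsf4 read 135 in double knockout glomeruli and 109 in floxed control glomeruli. Tnfrsf8, Tnfrsf14 and Tnfrsf18, on the same chromosome, were below the floor.

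Cd40, the receptor through which T cells activate antigen-presenting cells, was ambiguous. Its representative probe set read 191 in the double knockout against 149 in the floxed control, 1.28-fold higher. A second probe set read 156 in the double knockout against 70.9 in the floxed control, a log2 difference of 1.14, and another read 173 in double knockout glomeruli and 162 in floxed control glomeruli, a difference of 0.10. Tnfrsf13b (TACI) read 60.4 in the double knockout against 22.0 in the floxed control, at least 1.15-fold higher.

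The TRAF adaptors differed little. Of 6 measured TRAF genes 5 were above 0 in their brightest probe set, against 56.1% of all measured genes, with a median of 0.41. None was past 1.5-fold, against 13.7% higher and 10.0% lower over all measured genes. Traf2, the adaptor shared by TNFR1 and TNFR2, read 393 in the double knockout against 290 in the floxed control, 1.36-fold higher. Traf7 read 624 in the double knockout against 442 in the floxed control, or 1.41-fold higher. Traf5 read 231 in double knockout glomeruli and 173 in floxed control glomeruli, or 1.34-fold higher, and Traf6 read 348 in the double knockout against 263 in the floxed control, or 1.32-fold higher. For Traf6, an adaptor also used by interleukin-1 and Toll-like receptors, the other 3 measured probe sets were lower, from -0.40 to -0.13. Traf1 was at the floor, at 55.1 in the double knockout against 36.1 in the floxed control. Traf4 was lower in both of its probe sets, and the brighter one read 421 in double knockout glomeruli and 493 in floxed control glomeruli. The TRAF3-interacting genes split, with Traf3ip2 (an adaptor of interleukin-17 receptors) at 0.45, Traf3ip1 at -0.05 and Traf3ip3 below the floor.

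Both cIAP genes, neighbours on chromosome 9, were higher. Birc3 (cIAP2) read 1240 in the double knockout against 771 in the floxed control, 1.61-fold higher, but its second probe set, close to the floor, read 56.6 in the double knockout against 60.8 in the floxed control. Birc2 (cIAP1) read 1211 in double knockout glomeruli and 869 in floxed control glomeruli, or 1.39-fold higher.

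The NF-κB and IκB genes held the largest difference. Nfkbie encodes IκBε, an inhibitor made in response to NF-κB. It read 860 in the double knockout against 326 in the floxed control, 2.63-fold higher, at percentile 99.0 of genes of like signal. Its second probe set read 370 in the double knockout against 160 in the floxed control, a log2 difference of 1.21. Nfkbie was thus past 2-fold in both probe sets, and it was the only gene of the 44 at least 1.5-fold higher after recentring on glomerular markers, at 0.66.

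Nfkb2 read 387 in the double knockout against 182 in the floxed control, 2.12-fold higher, at percentile 96.8. A cross-hybridising Nfkb2 probe set read 270 in double knockout glomeruli and 286 in floxed control glomeruli, a difference of -0.08, so the direction rests on 1 probe set. Relb, its partner in the non-canonical branch, read 384 in the double knockout against 242 in the floxed control, 1.59-fold higher. Rela, the main transactivating subunit of the canonical branch, read 2356 in the double knockout against 1714 in the floxed control, or 1.37-fold higher. Rel was below the floor. All 3 measured subunits were therefore higher in their brightest probe set.

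Among the other IκB genes, Nfkbiz (IκBζ, a nuclear cofactor) read 938 in the double knockout against 533 in the floxed control, 1.76-fold higher. Its other probe sets gave 0.69 and 0.22. Nfkbia, which encodes IκBα, the fast feedback inhibitor, read 10087 in double knockout glomeruli and 8963 in floxed control glomeruli, a difference of 0.17, with 0.04 to 0.54 in its other 4 probe sets. Nfkbib (IκBβ) read 515 in the double knockout against 548 in the floxed control, a difference of -0.09. The inhibitors thus ranged from 2.63-fold higher for Nfkbie to close to 0 for Nfkbib.

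**Figure D2:**
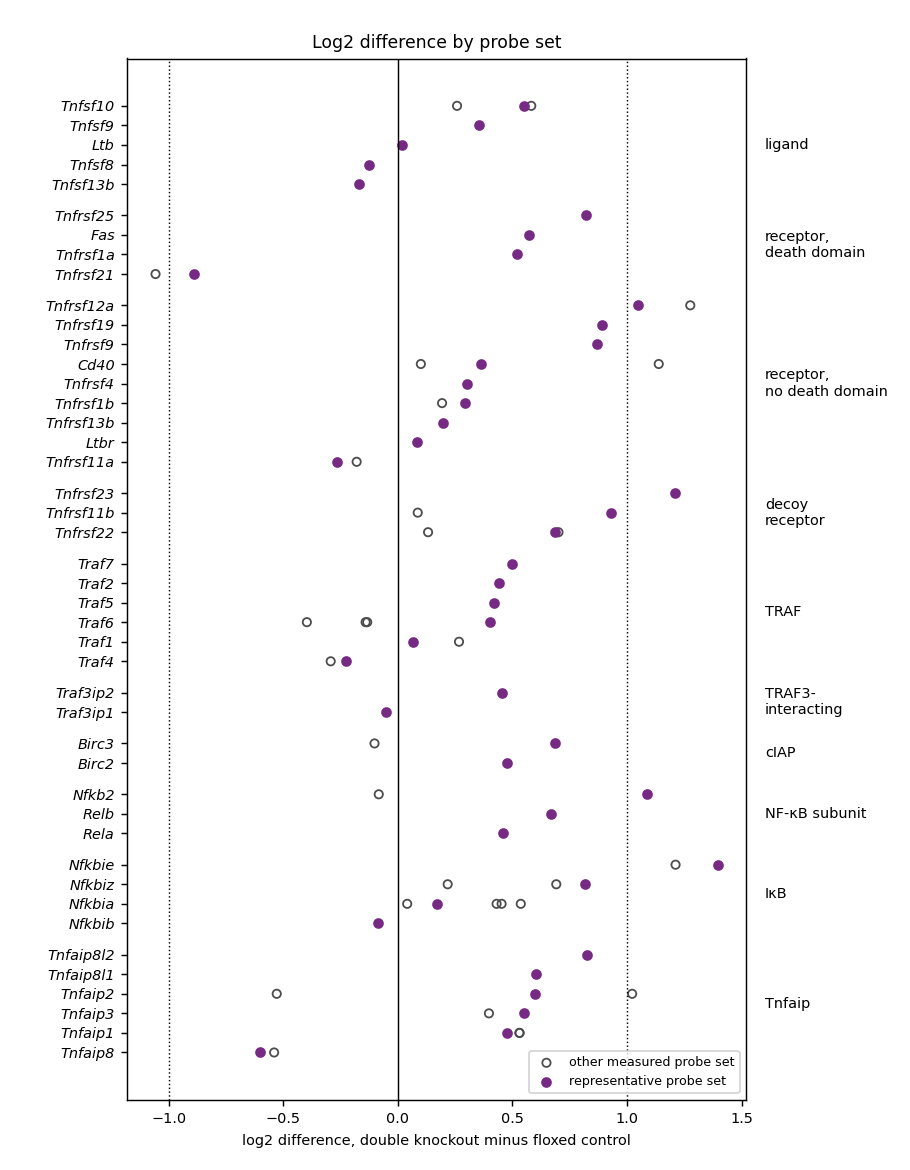
Log2 difference (double knockout minus floxed control) of every measured probe set of the 44 genes, with the representative probe set filled and others open; dotted lines mark 2-fold. Both probe sets of Nfkbie and Tnfrsf12a lie beyond 2-fold higher, both of Tnfrsf21 lie below -0.80, and those of Nfkb2, Birc3, Tnfaip2 and Traf6 fall on both sides of 0.

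Of the 20 genes with more than 1 measured probe set, 12 had all of them above 0, 4 had all of them below 0 and 4 were mixed. The same split over all genes is not given here, so these counts cannot be read as particular to the family. Counted by probe set, 8 of 75 measured sets were at least 2-fold higher, against 3.27% of all measured probe sets with 1 symbol. At least 2-fold lower was 1, of Tnfrsf21, against 2.39%.

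Several of the Tnfaip genes are named for induction by TNF, and the group differs in function. Tnfaip3 encodes A20, a ubiquitin-editing brake on NF-κB, and read 555 in the double knockout against 378 in the floxed control, 1.47-fold higher, with 0.40 in its second probe set. Tnfaip2 read 1413 in the double knockout against 934 in the floxed control, or 1.51-fold higher, while its other probe sets gave 1.02 and -0.53. Tnfaip1 was 1.39-fold higher, at 2650 in the double knockout against 1908 in the floxed control, with 0.53 in both other probe sets. In the Tnfaip8 family, Tnfaip8l1 read 207 in double knockout glomeruli and 136 in floxed control glomeruli, or 1.52-fold higher, and Tnfaip8l2 read 93.2 in the double knockout against 51.2 in the floxed control, at least 1.77-fold higher. Tnfaip8 itself read 4818 in the double knockout against 7321 in the floxed control, 1.52-fold lower, and its second probe set gave -0.54. Tnfaip6, which encodes the hyaluronan-binding protein TSG-6, was below the floor.

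Promoter windows of some family genes are printed, most of them chosen because they hold a match, to show where the NF-κB consensus lies in them. Each runs from 250 bases before to 50 after an annotated start (RefSeq, GRCm38.p6), 5′ to 3′ on the gene's strand, with matches to the 10-letter NF-κB consensus on either strand in capitals and overlapping matches joined. Nfkb2 is at chr19:46304487-46304786 (plus strand), Nfkbie at chr17:45555450-45555749 (plus strand), Nfkbia at chr12:55492598-55492897 (minus strand), Tnfaip3 at chr10:19015361-19015660 (minus strand) and Tnfrsf9 at chr4:150927749-150928048 (plus strand). Tnfrsf12a at chr17:23677400-23677699 (minus strand) and Tnfrsf21 at chr17:43016305-43016604 (plus strand) are shown as the receptors with the clearest differences in either direction, and hold no match.
Nfkb2: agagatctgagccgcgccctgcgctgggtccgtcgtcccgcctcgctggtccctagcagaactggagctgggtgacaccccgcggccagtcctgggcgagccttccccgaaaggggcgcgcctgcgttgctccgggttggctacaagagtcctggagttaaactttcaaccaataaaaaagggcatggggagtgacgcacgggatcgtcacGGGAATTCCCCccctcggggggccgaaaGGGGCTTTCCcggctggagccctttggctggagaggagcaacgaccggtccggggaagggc
Nfkbie: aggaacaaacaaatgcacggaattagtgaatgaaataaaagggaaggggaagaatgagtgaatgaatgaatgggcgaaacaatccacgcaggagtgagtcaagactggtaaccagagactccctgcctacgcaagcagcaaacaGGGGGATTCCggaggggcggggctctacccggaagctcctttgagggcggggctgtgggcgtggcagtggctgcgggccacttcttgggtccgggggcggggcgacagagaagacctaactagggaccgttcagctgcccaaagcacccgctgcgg
Nfkbia: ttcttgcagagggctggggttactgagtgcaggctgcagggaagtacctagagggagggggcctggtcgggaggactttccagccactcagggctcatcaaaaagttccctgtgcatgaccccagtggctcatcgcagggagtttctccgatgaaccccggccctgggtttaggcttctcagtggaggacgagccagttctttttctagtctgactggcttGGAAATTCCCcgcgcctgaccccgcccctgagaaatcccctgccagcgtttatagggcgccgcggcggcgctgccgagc
Tnfaip3: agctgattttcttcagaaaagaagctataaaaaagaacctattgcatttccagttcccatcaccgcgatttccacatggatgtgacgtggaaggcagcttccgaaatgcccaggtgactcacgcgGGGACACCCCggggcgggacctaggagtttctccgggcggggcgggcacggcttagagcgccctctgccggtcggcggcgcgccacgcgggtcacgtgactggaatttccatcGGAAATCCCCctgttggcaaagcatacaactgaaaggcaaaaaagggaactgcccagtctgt
Tnfrsf9: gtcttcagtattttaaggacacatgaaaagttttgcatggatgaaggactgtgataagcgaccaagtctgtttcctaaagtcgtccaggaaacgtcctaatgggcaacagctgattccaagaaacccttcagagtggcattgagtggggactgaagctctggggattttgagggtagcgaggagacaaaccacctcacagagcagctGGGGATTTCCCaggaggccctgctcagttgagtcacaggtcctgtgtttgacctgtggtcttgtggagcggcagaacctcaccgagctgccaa
Tnfrsf12a: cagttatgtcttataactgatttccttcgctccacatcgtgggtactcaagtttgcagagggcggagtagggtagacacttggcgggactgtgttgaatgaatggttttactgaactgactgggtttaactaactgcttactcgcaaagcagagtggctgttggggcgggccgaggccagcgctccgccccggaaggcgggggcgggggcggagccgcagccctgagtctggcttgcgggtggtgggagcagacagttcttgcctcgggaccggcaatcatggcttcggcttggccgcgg
Tnfrsf21: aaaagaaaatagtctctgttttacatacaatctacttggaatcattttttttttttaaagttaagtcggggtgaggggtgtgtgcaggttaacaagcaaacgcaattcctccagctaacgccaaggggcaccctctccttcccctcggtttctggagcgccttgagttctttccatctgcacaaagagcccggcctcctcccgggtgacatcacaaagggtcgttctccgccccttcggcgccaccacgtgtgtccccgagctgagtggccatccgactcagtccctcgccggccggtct

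The Nfkb2 window held matches beginning 39 and 11 bases before the start, GGGAATTCCCC and GGGGCTTTCC. The Nfkbie window held GGGGGATTCC 106 bases before the start, and the Nfkbia window GGAAATTCCC 29 bases before it. In Tnfaip3 the matches GGGACACCCC and GGAAATCCCC began 125 and 12 bases before the start, and in Tnfrsf9 GGGGATTTCCC began 43 bases before it. Promoter sequences were matched for 48 of the 59 genes, of which 9 (18.8%) held a match in at least 1 window, against 5.14% of 27025 genes in the table. The other genes with a match were Ltb, Rel, Tnfaip8l1 and Tnfrsf8. The windows of Rela, Birc3 and Nfkbib held none. Tnfaip3 and Tnfrsf9 each have another annotated start whose window held none. The 7 measured genes with a match had differences from 0.02 (Ltb) to 1.40 (Nfkbie) with a median of 0.60, against a median of 0.44 over 29 measured genes without one. A match describes the letters only, and these ranges overlapped widely.

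The signalling genes between receptor and NF-κB were less shifted than the listed family. All 30 adaptors, kinases and ubiquitin enzymes with a probe set were measured, with 24 above 0 and a median of 0.22, against 56.1% and 0.07 over all measured genes. Map3k8, which encodes the kinase Tpl2, was the 1 gene at least 2-fold higher, at 207 in the double knockout against 95.9 in the floxed control (2.16-fold). Tnip1, an A20-binding partner, read 710 in double knockout glomeruli and 373 in floxed control glomeruli, or 1.91-fold higher, and Mlkl, the executioner of necroptosis, read 300 in the double knockout against 170 in the floxed control, or 1.76-fold. Ripk3, the kinase that acts on MLKL, was 1.52-fold higher at 106 in the double knockout against 69.4 in the floxed control. Map3k14, which encodes the non-canonical kinase NIK, read 234 in double knockout glomeruli and 163 in floxed control glomeruli, or 1.44-fold. Map3k8, Tnip1, Mlkl and Ripk3 were the only 4 of the 30 at least 1.5-fold higher, close to the share of 13.7% over all genes. None of the 30 was 1.5-fold lower, against 10.0% of all genes. The single gene past 2-fold is close to the share of 3.53% over all genes.

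Superfamily genes that carry other symbols were dim, with 5 of 10 measured. Relt, an orphan receptor of the family, read 140 in the double knockout against 65.3 in the floxed control, 2.14-fold higher. Eda2r, a receptor of ectodysplasin A2, read 102 in the double knockout against 38.5 in the floxed control, at least 1.93-fold higher. Ngfr, the p75 neurotrophin receptor, was 1.59-fold lower, at 77.3 in the double knockout against 123 in the floxed control. Cd40lg, Fasl, Cd27 and Cd70, ligands and receptors known from lymphocytes, were below the floor on both arrays.

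NF-κB target genes outside the family spread more widely. Of 26 measured targets 21 were above 0, 7 were higher by 2-fold or more and 1, Mmp9, was lower by at least 2.49-fold, with a median of 0.48. Mmp9 read 50.2 in the double knockout, below the floor, against 131 in the floxed control. Its second probe set was below the floor on both arrays. Over all measured genes 3.53% were at least 2-fold higher, 2.87% at least 2-fold lower and 56.1% above 0. At 1.5-fold, 11 targets were higher and 3 lower, against 13.7% and 10.0% of all genes. Beside Mmp9 the lower ones were Plau, at 145 in the double knockout against 260 in the floxed control, and Sod2. Sod2 read 5502 in the double knockout against 9547 in the floxed control, and each of its probe sets was lower. The largest differences were those of Ccl2 (at least 10.5-fold), Vcam1 (7.08-fold), Gadd45b (4.72-fold), Cxcl2 (4.05-fold), Lcn2 (3.65-fold) and Cxcl5 (at least 2.90-fold). The median of all 26 measured targets was close to the 0.47 of the family genes, and both lay below the 0.74 of the glomerular markers.

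**Figure D3:**
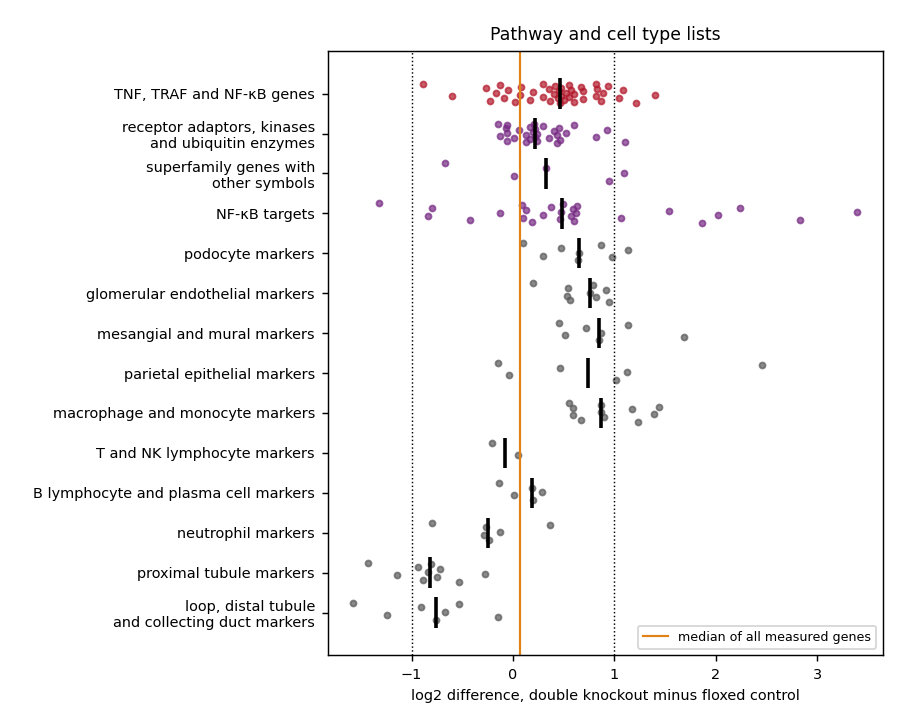
Log2 difference (double knockout minus floxed control) of each measured gene of the family, of 3 pathway lists and of 10 cell type marker lists; black bars are list medians, the orange line is the median of all measured genes (0.07) and dotted lines mark 2-fold. The family median of 0.47 lies between the orange line and the glomerular marker medians, which run from 0.65 to 0.85, and the tubule marker lists lie to the left of 0.

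Of the 17 genes at least 1.5-fold different, all but Birc3 kept their direction under the other floors, scalings and choices of probe set that measured them, recentring on glomerular markers aside. Birc3 was at -0.10 when probe sets shared between transcripts were left out. Over the settings that measured them, Nfkbie ran from 0.66 to 1.40, Nfkb2 from 0.34 to 1.09 and Tnfrsf12a from 0.31 to 1.05. The lowest value of each came after recentring. All probe sets of Nfkbie and Nfkb2 carry the suffix _x_at, _s_at or _a_at. Neither gene therefore has a value in the setting that left such sets out. Tnfrsf21 ran from -1.63 to -0.82 and Tnfaip8 from -1.35 to -0.43. Among the genes at least 1.5-fold higher, Relb, Birc3, Tnfaip2, Tnfaip8l1 and Tnfrsf22 were below 0 after recentring, at -0.076, -0.057, -0.15, -0.14 and -0.055.

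**Figure D4:**
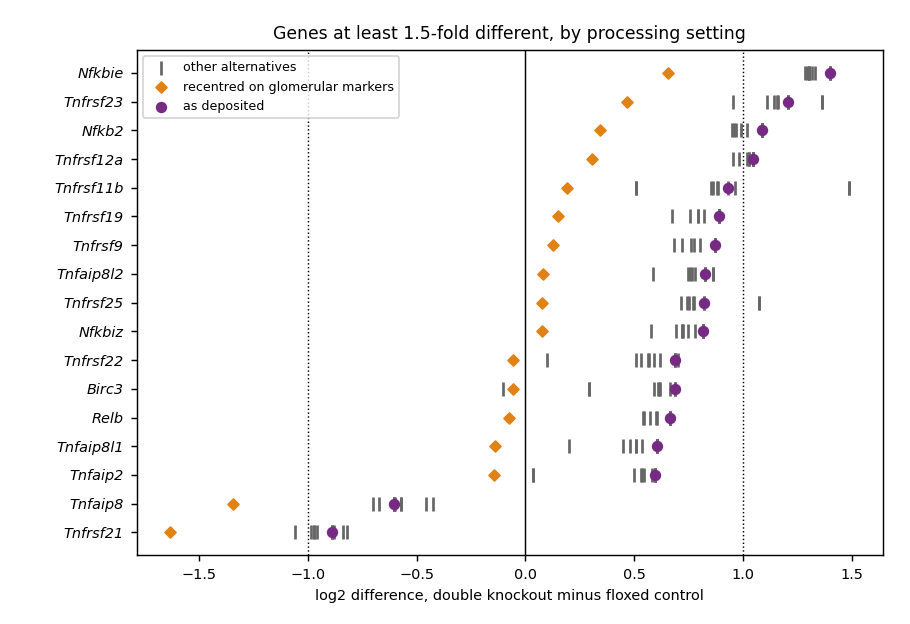
Log2 difference (double knockout minus floxed control) of the 17 genes at least 1.5-fold different, as deposited (circles), recentred on glomerular markers (diamonds) and under the other alternatives (ticks); dotted lines mark 2-fold. Recentring moves every gene to the left by 0.74, and Tnfrsf21 and Tnfaip8 stay below 0 in each setting.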

How the data were processed

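Glomeruli were isolated by sieving and biotin-labelled cRNA was hybridised to 1-colour arrays, per the labels' protocols. The authors deposited 1 linear intensity per probe set and array, which the submitters' processing notes credit to MAS5, without a version. From the values, the mean without the lowest and highest 2% was 500.0 on both arrays, so values are relative to each array's mean. The number of arrays limits the precision.

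Gene names came from GEO's annotation of the platform: of 45037 probe sets beside 64 controls, 34945 had 1 symbol, 932 several and 9160 none listed, and 34741 matched the RefSeq table of GRCm38.p6. Each gene was given by its brightest probe set, leaving out sets with the suffix _x_at (cross-hybridising) if the gene had others. The floor was the mean over arrays of the 40th percentile, 52.7. Genes were counted at 2-fold and 1.5-fold.

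The members, gene lists and rules were chosen with earlier results of these data known. Every member could be named, with up to 6 genes per pathway list, the NF-κB targets at least 1.5-fold lower and the targeted genes. Alternatives comprised floors, a pseudocount of 32, scalings, recentring and choices of probe set. The steps were tested on simulated signals. Python 3.11.15, numpy 2.4.6, pandas 2.3.3 and statsmodels 0.14.6 (loess) were used.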

Additional observations from a re-analysis of the deposited data

Results flagged for a closer look

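Of 3 probe sets left out because they are annotated to more than 1 gene, at least 1 of which carries a symbol of the family, 1 differed by more than 2-fold. It read 358 in the double knockout against 127 in the floxed control, 2.81-fold higher. It stands here because no comparison above used it and its signal was above that of the floxed control. The others read 644 in the double knockout against 375 in the floxed control (1.72-fold higher), and 800 in the double knockout against 693 in the floxed control (1.15-fold higher).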

How the results depend on the processing

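No paired analysis was possible because each genotype had 1 array. The count of family genes at least 2-fold higher was 4 of 44 measured as reported, beside 469 of all 13290 measured genes. With no floor it was 8 of 44 (650 of 13290), and with one at the 25th percentile 8 of 50 (675 of 15603). With a floor at the 60th it was 3 of 30 (274 of 10371). A pseudocount of 32 gave 2 of 44 (377 of 13290) and 75th percentile scaling 2 of 44 (333 of 13303). Without probe sets of the suffixes _x_at, _s_at and _a_at it was 2 of 37 (420 of 11704). After recentring on glomerular markers it was 0 of 44 (51 of 13290). At 1.5-fold and 3-fold it was 15 and 0. The count at least 2-fold lower, 0 as reported, was 1 without those suffixes, 3 after recentring and 2 at 1.5-fold. Recentring subtracts 0.74 from every gene by construction and reversed the medians, to -0.28 for the family, -0.52 for adaptors, kinases and ubiquitin enzymes, -0.42 for superfamily genes with other symbols and -0.26 for NF-κB targets. It put Relb at -0.076, Tnfaip2 at -0.15, Tnfaip8l1 at -0.14, Birc3 at -0.057, Tnfrsf22 at -0.055 and Ripk3 at -0.14. Over the other settings the family median ran from 0.37 to 0.51, and that of superfamily genes with other symbols reached 1.10 with no floor; with the floor at the 60th percentile no gene of that list was measured. Birc3 was at -0.10 without the suffixed probe sets, and Nfkbie and Nfkb2, which have no other sets, had no value there. The cause of these shifts was not tested where the setting itself does not give it. Over all genes the split of 469 higher and 382 lower past 2-fold became 333 higher and 530 lower with 75th percentile scaling, 367 higher and 491 lower after centring on the median, 359 higher and 437 lower after quantile normalization, 341 higher and 444 lower after removal of the loess trend and 51 higher and 3200 lower after recentring. For 8 of the 44 measured genes a signal below the floor leaves the fold as a lower bound.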
